A study of Mus musculus with 10 samples.

Results

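Hepatic stellate cells and the fibroblasts of the portal tract make the liver's scar matrix, and 10 genes tied to their activation were followed through 2 experiments on mouse liver regrowing after partial hepatectomy (PHx, the surgical removal of most of the liver). The genes were chosen by name and looked up by Ensembl identifier, and all 10 were found among the 55487 identifiers of each liver table. They are Des and Acta2 (cytoskeleton), Tgfb1 and Reln (secreted ligands), Pdgfrb (a growth factor receptor), Timp1 (a protease inhibitor), Lox (a collagen cross-linker), Dcn and Lum (small proteoglycans) and Sparc (a matricellular protein).

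In healthy liver, stellate cells lie between hepatocytes and sinusoidal endothelium and store vitamin A. On injury they can turn into contractile, matrix-producing myofibroblasts under signals such as TGF-β and platelet-derived growth factor, and this change is best known from liver fibrosis. Stellate cells also take part in regrowth after hepatectomy, when they secrete growth factors and lay down and remodel matrix around dividing hepatocytes.

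In the diet experiment, male C57BL/6 mice of 8 weeks were fed either HFD, a high-fat diet, or regular chow for 7 days and then underwent PHx, with liver collected 40 h afterwards. There were 3 HFD libraries and 3 chow libraries, and the labels give 3 mice per group. In the inhibitor experiment, C57BL/6J mice of the same age, labelled as male, were given SSO at 40 mg/kg, or the solvent alone as vehicle, on the day before PHx, with liver collected 48 h afterwards. There were 4 SSO libraries and 4 vehicle libraries. The labels do not spell out SSO, an abbreviation in common use for sulfosuccinimidyl oleate, a blocker of the fatty acid transporter CD36. No group carried a genetic change according to the labels, and neither experiment as analysed here had a liver without PHx. The labels give 8 mice per group in the inhibitor experiment and do not say which animals the 4 libraries came from, and a p-value from these columns speaks to differences among libraries that may be technical.

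Each diet library held between 31912664 and 39910561 counts and each inhibitor library between 25204205 and 30388236 counts. Mitochondrial transcripts took 6.56 to 9.96% of the counts in the diet libraries and 15.17 to 17.61% in the SSO libraries, against 4.99, 22.51, 11.53 and 9.15% in vehicle libraries 1 to 4. The vehicle libraries stood apart from each other: on the first principal component of the inhibitor experiment, which held 45.8% of the variance, the SSO libraries scored 31.8 to 40.5, against -97.3 and -92.8 for vehicle 1 and vehicle 3, vehicle 2 at 52.5 and vehicle 4 at -2.89. All 8 inhibitor libraries carried Xist and had 0 counts over 4 Y-linked genes, which goes against their label as male. The Xist level was not alike, with 43416 to 49242 counts in SSO libraries and 21121 to 41550 counts in vehicle libraries. Timp1 lies on the X chromosome.

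On build GRCm38 the cytoskeletal genes are Des (ENSMUSG00000026208) at chr1:75360329-75368579 on the plus strand and Acta2 (ENSMUSG00000035783) at chr19:34241090-34255590 on the minus strand. The ligand and receptor genes are Tgfb1 (ENSMUSG00000002603) at chr7:25687002-25705077 on the plus strand, Reln (ENSMUSG00000042453) at chr5:21884454-22344702 on the minus strand and Pdgfrb (ENSMUSG00000024620) at chr18:61045150-61085061 on the plus strand. The genes of matrix turnover are Timp1 (ENSMUSG00000001131) at chrX:20870166-20874735 on the plus strand and Lox (ENSMUSG00000024529) at chr18:52516067-52529867 on the minus strand. The matrix genes are Dcn (ENSMUSG00000019929) at chr10:97479609-97518143 on the plus strand, Lum (ENSMUSG00000036446) at chr10:97565128-97572703 on the plus strand and Sparc (ENSMUSG00000018593) at chr11:55394500-55423183 on the minus strand. All 10 are annotated as protein-coding.

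Stellate cell markers were looked up in the same libraries. The stellate markers Lrat, Colec11, Ecm1, Hand2, Lhx2, Ngfr and Cygb, and the members Des, Reln and Pdgfrb, were detected in every library of both experiments. Hepatocyte transcripts dominated, and the most abundant hepatocyte marker, Alb, had 30839 to 55072 CPM (counts scaled to a library of 1000000) in the diet libraries and 47101 to 82776 CPM in the inhibitor libraries. Detection in whole-liver RNA does not show which cells supplied the other members, so it is no test of the label of the set. In whole-liver RNA, fewer stellate cells or fibroblasts and less of a transcript per cell cannot be told apart.

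Promoter windows of 3 members are shown because these genes had the values furthest apart between the SSO and vehicle groups among the 6 members with a window in the RefSeq table (Des, Acta2, Tgfb1, Reln, Timp1 and Sparc). Each window, from RefSeq on build GRCm38.p6, runs 5′ to 3′ from 250 bases before to 50 bases after the gene start in RefSeq. Acta2 lies on the minus strand (chr19:34255324-34255623), Timp1 on the plus strand (chrX:20869916-20870215) and Sparc on the minus strand (chr11:55420031-55420330). The RefSeq start and the outer end of the GENCODE gene coincide for Timp1, while the RefSeq start lies 217 bases inside the GENCODE gene for Acta2 and 3103 bases inside it for Sparc, so the Sparc window is not at the start given for that gene above. Capitals mark matches, on either strand, to the motifs named after the sequences.
Acta2 window: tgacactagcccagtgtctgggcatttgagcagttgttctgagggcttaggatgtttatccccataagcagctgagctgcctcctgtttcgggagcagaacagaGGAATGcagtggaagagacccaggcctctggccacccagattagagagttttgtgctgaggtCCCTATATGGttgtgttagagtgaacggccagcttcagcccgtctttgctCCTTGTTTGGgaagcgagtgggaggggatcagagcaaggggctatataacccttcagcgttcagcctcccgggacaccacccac
Timp1 window: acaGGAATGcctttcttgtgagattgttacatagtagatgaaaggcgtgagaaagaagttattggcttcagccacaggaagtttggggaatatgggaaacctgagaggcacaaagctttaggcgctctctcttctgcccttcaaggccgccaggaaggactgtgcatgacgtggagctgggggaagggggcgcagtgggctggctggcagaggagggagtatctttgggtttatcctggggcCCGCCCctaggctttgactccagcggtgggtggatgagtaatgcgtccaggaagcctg
Sparc window: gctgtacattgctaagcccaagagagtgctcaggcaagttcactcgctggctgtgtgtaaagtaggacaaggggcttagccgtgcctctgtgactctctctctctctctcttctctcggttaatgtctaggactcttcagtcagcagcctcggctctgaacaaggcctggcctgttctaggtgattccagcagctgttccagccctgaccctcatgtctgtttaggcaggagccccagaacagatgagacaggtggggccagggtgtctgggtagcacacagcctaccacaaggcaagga

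Searched were the CArG box, the element read by serum response factor in smooth muscle genes (CC, then 6 central bases of which at most 1 is other than A or T, then GG); GGAATG, a core read by TEAD factors; GGGCGG, the GC box read by Sp1; and TGANTCA, the element read by AP-1. None of these motifs overlapped another in the windows shown. The Acta2 window held 2 CArG boxes, CCCTATATGG with its first base at -84 and CCTTGTTTGG at -34, counted from the start, and 1 GGAATG at -146. The Timp1 window held GGAATG at -247 and a GC box, written CCGCCC on the printed strand, at -8. The Sparc window held no match to any of them, which says only that these letters are not in this window, at the RefSeq start. Of 32851 windows of the same length, 9.98% held a CArG box, 14.7% GGAATG, 35.7% a GC box and 7.81% TGANTCA. A match is a match of letters, and no binding was measured.

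Levels of different genes were compared as CPM per kilobase of exon. Decorin, encoded by Dcn, had the highest mean of the 10 in HFD, chow and SSO livers, at 23.4 ± 1.17, 35.3 ± 2.79 and 18.8 ± 5.55 CPM per kilobase (SD; n = 3, 3 and 4). In vehicle livers Sparc came before Dcn, at 31.2 ± 17.3 and 17.2 ± 5.09 CPM per kilobase (SD, n = 4). Sparc was next after Dcn in the other groups, at 19.3 ± 5.06 in HFD, 17.6 ± 1.71 in chow and 13.9 ± 1.47 CPM per kilobase in SSO livers. By group mean, these 2 matrix genes stood above the other 8 in every group, and Lox was the lowest of the 10 in every group.

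The middle of the order was crowded. In HFD livers, Acta2, Pdgfrb, Tgfb1, Timp1, Des and Reln lay between 2.42 and 1.68 CPM per kilobase, closer to each other than the SD of 1.10 for Acta2 or 1.28 for Timp1. In chow livers, Acta2 led the same 6 genes at 3.23 ± 1.38 CPM per kilobase and Tgfb1 was the lowest of them at 1.61 ± 0.438 (SD, n = 3). In SSO livers, Acta2 averaged 1.33 ± 0.559 and Timp1 0.388 ± 0.267 CPM per kilobase, behind most of the others, while in vehicle livers they followed directly after Sparc and Dcn at 6.55 ± 5.90 and 5.10 ± 5.17 CPM per kilobase (SD, n = 4). From Acta2 to Des in the vehicle order, each neighbour lay within 1 SD of the next, with Acta2 and Timp1 having SDs about as large as their means.

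**Figure D1:**
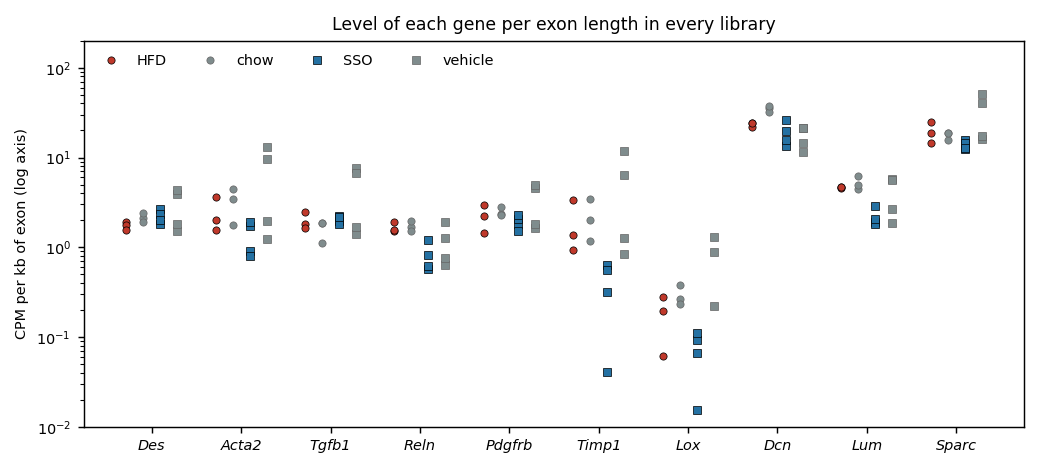
Level of each gene in CPM per kilobase of exon (log axis) in every HFD, chow, SSO and vehicle library, 1 point per library. By group mean, Dcn and Sparc lie above the other 8 genes and Lox lies lowest, while single libraries can depart from this order. The vehicle libraries spread most for Acta2, Timp1 and Lox. Lox in vehicle 2 had 0 counts and is not drawn.

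The diet comparison asked how 7 days of HFD before PHx bore on these genes at 40 h. None of the 10 passed the test, and Dcn came nearest, at 0.662 times the chow level in HFD livers. By edgeR's quasi-likelihood test with Benjamini-Hochberg adjustment over 15589 genes, 0 of 10 members had an adjusted p under 0.05, where 2.32% of all genes tested did (361 genes). At an unadjusted p under 0.05 there was 1 member, Dcn, against 15.0% of all genes. DESeq2 called 1 member, Dcn, where it called 5.94% of all genes, and limma-voom called 0. The median log2 fold change (HFD over chow) of the 10 was -0.20, that of all genes tested was -0.02, and 8 of 10 members were below 0 (6 of 10 with scaling by library size alone), where 52.7% of all genes were.

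The cytoskeletal genes come first. Des, which encodes desmin, the intermediate filament used to mark stellate cells in rodents, had 7.22, 6.56 and 5.88 CPM in HFD livers and 7.93, 7.12 and 9.13 CPM in chow livers. The groups overlapped by a little, with HFD 1 just above chow 2, and the log2 fold change was -0.30 ± 0.19 (SE; 95% interval -0.73 to 0.14). Acta2, which encodes α-smooth muscle actin, the actin of activated stellate cells and of vascular smooth muscle, had 8.05, 4.47 and 3.43 CPM in HFD livers and 9.91, 7.48 and 3.87 CPM in chow livers. Each group held 1 library at more than 8 CPM and 1 below 4 CPM, the groups overlapped, and the log2 fold change was -0.42 ± 0.41 (SE; 95% interval -1.35 to 0.52).

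Of the ligands, Tgfb1, the TGF-β that drives matrix production in stellate cells, had 9.24, 8.28 and 12.5 CPM in HFD livers and 5.57, 9.50 and 9.28 CPM in chow livers. HFD 3 was highest and chow 1 lowest, with the other 4 libraries close together, and the log2 fold change was 0.30 ± 0.25 (SE; 95% interval -0.27 to 0.87). Reln, which encodes reelin, a secreted glycoprotein of quiescent and activated stellate cells in the liver, had 45.9, 36.3 and 37.2 CPM in HFD livers and 40.3, 46.1 and 36.3 CPM in chow livers. The groups covered the same range, and the log2 fold change was -0.04 ± 0.15 (SE; 95% interval -0.37 to 0.29).

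Pdgfrb, the receptor through which platelet-derived growth factor makes stellate cells divide and migrate, had 16.2, 12.2 and 7.89 CPM in HFD livers and 12.8, 12.4 and 15.2 CPM in chow livers. HFD 1 was the highest and HFD 3 the lowest of all 6, and the log2 fold change was -0.15 ± 0.25 (SE; 95% interval -0.71 to 0.41). Timp1, which blocks matrix metalloproteinases and so slows matrix breakdown, had 1.21, 2.96 and 0.827 CPM in HFD livers and 1.03, 1.78 and 3.10 CPM in chow livers. Each group held 1 library near 3 CPM, and the log2 fold change was -0.24 ± 0.56 (SE; 95% interval -1.51 to 1.03). Lox, which cross-links collagen and elastin, rested on 10 to 70 counts per library, with 1.35, 0.937 and 0.295 CPM in HFD livers and 1.28, 1.83 and 1.11 CPM in chow livers. HFD 3 was the lowest, HFD 1 lay within the chow range, and the log2 fold change was -0.70 ± 0.54 (SE; 95% interval -1.92 to 0.51).

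Among the matrix genes, Dcn, whose product decorin binds collagen fibrils and TGF-β, had 140, 129 and 141 CPM in HFD livers and 210, 188 and 220 CPM in chow livers. All 3 HFD libraries lay below all 3 chow libraries, a gap seen in this direction for 10.8% of all genes tested, and no other member had groups that did not overlap. The means were 137 ± 6.82 CPM in HFD livers and 206 ± 16.3 CPM in chow livers (SD, n = 3 each), a fold of 0.662 and a log2 fold change of -0.59 ± 0.13 (SE; 95% interval -0.89 to -0.29). By edgeR's quasi-likelihood test with Benjamini-Hochberg adjustment, the adjusted p was 0.0573, just short of the threshold of 0.05. It was 0.00147 by DESeq2 and 0.0358 by edgeR with no filter on low counts (a setting that called 2.56% of all genes), and over all 12 alternatives it ran from 0.00147 to 0.251, with 2 of them below the threshold.

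Lum, which encodes lumican, a relative of decorin whose gene is its neighbour on chromosome 10, had 11.4, 11.3 and 11.4 CPM in HFD livers and 15.1, 10.8 and 12.1 CPM in chow livers. The HFD libraries fell within the chow range, and the log2 fold change was -0.16 ± 0.17 (SE; 95% interval -0.53 to 0.22). Sparc, a collagen-binding protein secreted during tissue remodelling, had 93.1, 54.9 and 70.9 CPM in HFD livers and 70.8, 59.3 and 70.2 CPM in chow livers. HFD libraries were both the highest and the lowest, and the log2 fold change was 0.13 ± 0.19 (SE; 95% interval -0.30 to 0.56).

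**Figure D2:**
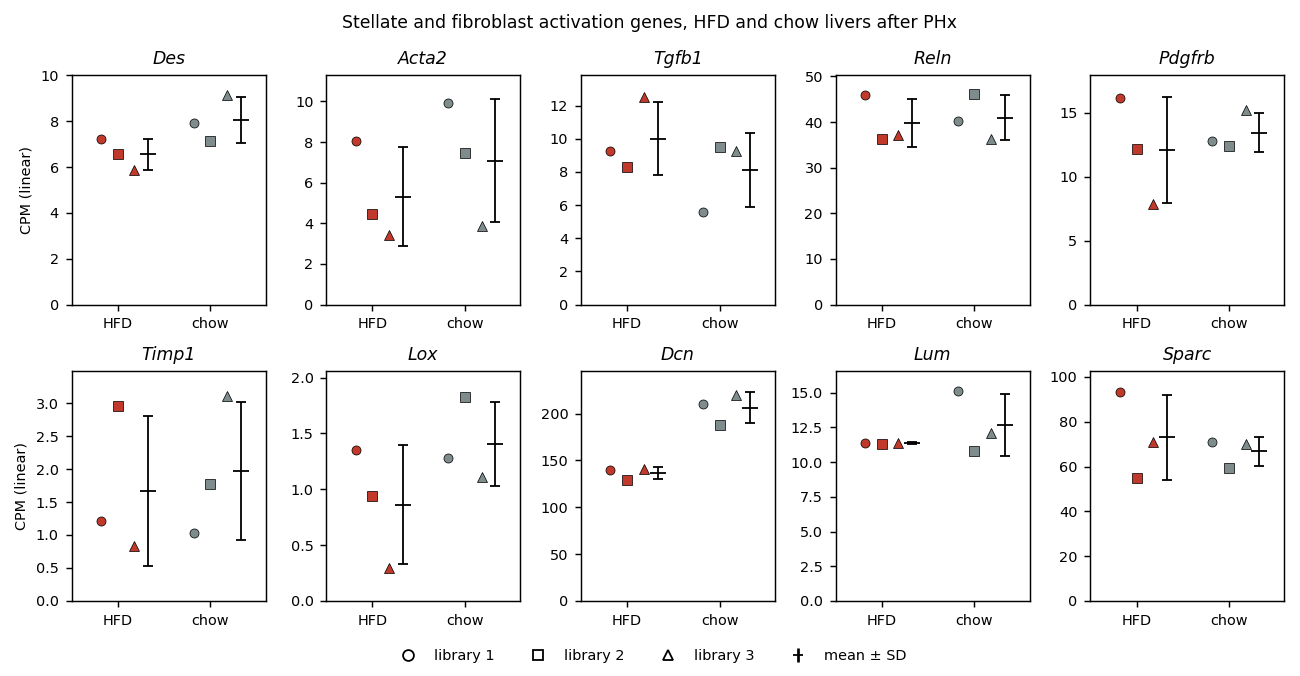
CPM of each of the 10 genes (linear axes from 0) in 3 HFD and 3 chow libraries, 1 marker shape per library number, with the mean and SD as bars. Dcn shows all HFD libraries (129 to 141 CPM) below all chow libraries (188 to 220 CPM), and the other 9 genes overlap.

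Across the 6 diet libraries, the 10 genes did not vary as one block. Of 45 pairs of members, 29 had a Pearson correlation of log2 CPM above 0, the median was 0.18 and the pairs ran from -0.81 (Tgfb1 with Lum) to 0.82 (Des with Dcn, and Pdgfrb with Lox); these are descriptions over 6 libraries of 2 groups, which share the group difference and the scaling. By a likeness rule, genes were ranked by how closely log2 CPM followed the mean standardised level of the 10 members over these 6 libraries. The highest of 12867 candidates included Sdf2, P3h4, Ntm and Gucy1a1, each with a Pearson correlation of 0.98 or more. Their Spearman correlations were 0.94, 0.83, 0.94 and 0.60, in that order. As the top of 12867 candidates over 6 libraries, they are a description only.

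Around the members, lists of genes of the same pathways were tested in the same fit. Over 24 genes linked to quiescent stellate cells, the median log2 fold change stood at -0.21. Ecm1, a secreted matrix protein of stellate cells, averaged 71.8 ± 9.08 CPM in HFD livers and 108 ± 13.0 CPM in chow livers (SD, n = 3 each), with an adjusted p of 0.0849 by edgeR, and did not pass.

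No gene passed the test among 20 contractile and myofibroblast genes, 26 genes of TGF-β signalling, 5 of the platelet-derived growth factor family, 18 matrix proteases and inhibitors, 14 matrix cross-linking and collagen-processing genes, 26 proteoglycan and matricellular genes, 5 of the reelin pathway and 5 intermediate filament partners. At an unadjusted p under 0.05 by edgeR these lists held 1, 6, 1, 4, 1, 7, 0 and 0 genes, in that order. The share of all genes tested at that threshold was 15.0%, in either direction. Ltbp4, which holds latent TGF-β in the matrix, averaged 21.7 ± 1.07 CPM in HFD livers and 32.5 ± 3.26 CPM in chow livers (SD, n = 3 each), with an adjusted p of 0.0541. Tgif1, a repressor of TGF-β signalling, had a log2 fold change of 0.63 ± 0.14 (SE) and an adjusted p of 0.0619, and Smad7, the inhibitory Smad, averaged 12.9 ± 4.06 CPM in HFD livers and 22.7 ± 2.93 CPM in chow livers, with an adjusted p of 0.111 by edgeR.

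The proteoglycan and matricellular list, to which Dcn, Lum and Sparc are related, had its median log2 fold change at -0.33, with 20 of 26 genes below 0, where 52.7% of all genes were. In 6 of the 26, all HFD libraries lay below all chow libraries, as in 10.8% of all genes. Spock2, a testican proteoglycan, averaged 0.786 ± 0.248 CPM in HFD livers and 2.86 ± 0.997 CPM in chow livers, with an adjusted p of 0.0541. Omd, or osteomodulin, averaged 1.37 ± 0.409 and 3.64 ± 0.984 CPM in the same order (adjusted p = 0.0773), and Sparcl1, a relative of Sparc, 1.77 ± 0.486 and 3.90 ± 0.627 CPM (adjusted p = 0.0979; SD, n = 3 each, edgeR).

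Markers of other cells that could carry these transcripts moved as follows. The summed CPM of 9 portal fibroblast markers was 14.9 to 22.4 in HFD livers and 22.5 to 29.1 in chow livers, and none of the 8 that were tested passed. The summed CPM of 6 smooth muscle markers was 23.8 to 30.4 in HFD livers and 10.5 to 18.9 in chow livers, and 1 of the 5 tested passed: Smtn, which encodes smoothelin, rose to 24.8, 19.9 and 25.1 CPM in HFD livers, against 11.7, 6.30 and 7.38 CPM in chow livers. The sum is mostly that gene: of the 5 tested, the other 4 (Myh11, Cnn1, Actg2 and Lmod1) had log2 fold changes of -0.62, -0.79, -1.80 and -0.43 and did not pass. For Smtn the log2 fold change was 1.46 ± 0.24 (SE; adjusted p = 0.0169 by edgeR's quasi-likelihood test with Benjamini-Hochberg adjustment). That call is lost without HFD 1 (adjusted p = 0.0977), without HFD 3 (0.0804) and without chow 2 (0.0549), within a range of 2.45e-06 to 0.0977 over 12 alternatives. The summed CPM of 6 cholangiocyte markers was 104 to 112 in HFD livers and 57.0 to 88.1 in chow livers, with no gene past the test. Most of that sum was Spp1, at 85.0 ± 2.43 CPM in HFD livers and 54.1 ± 12.8 CPM in chow livers (SD, n = 3 each), and 3 of the 6 markers were above 0 and 3 below, Krt19, Krt7 and Epcam at log2 fold changes of -0.78, -0.67 and -0.31. The summed CPM of 11 stellate markers, among them the members Des, Reln and Pdgfrb, was 224 to 261 in HFD livers and 255 to 276 in chow livers. The part of these cell types in the Dcn values was not tested.

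The inhibitor comparison asked how SSO, given before PHx, bore on the same genes at 48 h. Of the 10 members, 9 had a lower fitted level in SSO livers, where 53.0% of all genes did (10 of 10 members with scaling by library size alone), but none passed the test, and the vehicle group split so that vehicle 1 and vehicle 3 stood high. By edgeR's quasi-likelihood test with Benjamini-Hochberg adjustment over 15788 genes, 0 of 10 members had an adjusted p under 0.05, where 0.450% of all genes tested did (71 genes). At an unadjusted p under 0.05 there were 5 members, all lower in SSO livers (Acta2, Timp1, Lox, Lum and Sparc), against 20.5% of all genes in either direction. DESeq2 called 4 of them (Acta2, Timp1, Lox and Sparc), where it called 7.71% of all genes, and limma-voom called 0. The median log2 fold change (SSO over vehicle) of the 10 was -0.99 and that of all genes was -0.04.

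For 9 of the 10 members, all but Dcn, vehicle 1 and vehicle 3 were the 2 highest of the 8 libraries. This held for 20.2% of all genes tested, and the same pair were the 2 lowest for 17.8%. The summed CPM of the 10 members was 188, 269.7, 199.9 and 221 in SSO 1 to 4, against 488, 172, 445 and 206 in vehicle 1 to 4. Vehicle 2 and vehicle 4 therefore lay within or below the SSO range. The fold change of each member is therefore given also with vehicle 1 and vehicle 3 left out together, a choice made after their place on the first principal component was seen; with that pair left out, 0 members were called and the median of the 10 was 0.04.

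Des had 10.1, 8.85, 6.81 and 7.55 CPM in SSO livers and 14.7, 5.63, 16.4 and 6.89 CPM in vehicle livers. The SSO libraries lay close to vehicle 2 and 4 and below vehicle 1 and 3, and the log2 fold change was -0.39 ± 0.34 (SE; 95% interval -1.15 to 0.37), or 0.41 without vehicle 1 and 3. Acta2 had 2.01, 1.75, 3.81 and 4.15 CPM in SSO livers and 21.3, 2.72, 29.1 and 4.32 CPM in vehicle livers. Vehicle 1 and vehicle 3 were far above every other library, and within the vehicle group the highest library stood 10.7 times above the lowest, against 2.37 times within the SSO group. The log2 fold change was -2.30 ± 0.73 (SE; 95% interval -3.94 to -0.65; adjusted p = 0.146 by edgeR), or -0.27 without vehicle 1 and 3. The window of Acta2 above holds a pair of CArG boxes, and a link between that match and these values was not tested.

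Tgfb1 had 9.92, 11.2, 9.13 and 10.9 CPM in SSO livers and 38.2, 7.08, 33.9 and 8.47 CPM in vehicle livers. The SSO libraries were tightly grouped, with an SD of log2 CPM of 0.14, against 1.28 in the vehicle group. The log2 fold change was -1.09 ± 0.52 (SE; 95% interval -2.25 to 0.07), or 0.41 without vehicle 1 and 3. Reln had 13.5, 28.9, 14.7 and 19.6 CPM in SSO livers and 45.4, 15.1, 29.8 and 17.8 CPM in vehicle livers. SSO 2 came close to vehicle 3, and the log2 fold change was -0.50 ± 0.36 (SE; 95% interval -1.30 to 0.31), or 0.22 without vehicle 1 and 3.

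Pdgfrb had 9.92, 11.3, 12.4 and 8.4 CPM in SSO livers and 25, 9.03, 26.8 and 9.91 CPM in vehicle livers. Vehicle 1 and 3 were above the rest, which lay between 8.4 and 12.4 CPM, and the log2 fold change was -0.75 ± 0.36 (SE; 95% interval -1.54 to 0.04), or 0.15 without vehicle 1 and 3. Timp1 had 0.557, 0.0364, 0.285 and 0.501 CPM in SSO livers (15, 1, 8 and 14 counts) and 5.68, 1.13, 10.5 and 0.754 CPM in vehicle livers (172, 25, 387 and 22 counts). All 4 SSO libraries lay below all 4 vehicle libraries, a gap seen in this direction for 5.62% of all genes tested. The log2 fold change was -3.70 ± 0.94 (SE; 95% interval -5.80 to -1.61), with an adjusted p of 0.111 by edgeR's quasi-likelihood test with Benjamini-Hochberg adjustment, and -1.43 without vehicle 1 and 3. It is the member with the largest fitted difference, measured on few counts in SSO livers.

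Lox had 0.0743, 0.437, 0.321 and 0.536 CPM in SSO livers and 4.19, 0, 6.23 and 1.06 CPM in vehicle livers. The 0 in vehicle 2 stands for a level of up to 3 counts, and it makes the groups overlap. Those 3 counts are 0.114 CPM by the library total alone, without the TMM scaling of the CPM values given here. The log2 fold change was -3.06 ± 1.14 (SE; 95% interval -5.61 to -0.51; adjusted p = 0.181 by edgeR), or -0.66 without vehicle 1 and 3.

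Dcn, the only one of the 10 that stood apart in the diet comparison, was the 1 member fitted higher in SSO livers, with 78.3, 152, 92.4 and 116 CPM in SSO livers and 126, 66.6, 125 and 84.2 CPM in vehicle livers. Its groups overlapped widely, the SD of log2 CPM was 0.42 in the SSO group and 0.45 in the vehicle group, and the log2 fold change was 0.13 ± 0.26 (SE; 95% interval -0.45 to 0.71), or 0.54 without vehicle 1 and 3. Lum had 4.72, 7.06, 4.39 and 5.01 CPM in SSO livers and 14.0, 4.54, 13.9 and 6.51 CPM in vehicle livers. Vehicle 2 and 4 lay within the SSO range, and the log2 fold change was -0.88 ± 0.37 (SE; 95% interval -1.71 to -0.06; adjusted p = 0.218 by edgeR), or -0.06 without vehicle 1 and 3.

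Sparc had 59.2, 47.7, 55.6 and 48.5 CPM in SSO livers and 194, 60.6, 153 and 65.7 CPM in vehicle livers. All 4 SSO libraries lay below all 4 vehicle libraries, but vehicle 2 exceeded SSO 1 by a small margin only. The means were 52.8 ± 5.55 CPM in SSO livers and 118 ± 65.7 CPM in vehicle livers (SD, n = 4 each), and the log2 fold change was -1.16 ± 0.35 (SE; 95% interval -1.94 to -0.38; adjusted p = 0.130 by edgeR), or -0.26 without vehicle 1 and 3. Timp1 and Sparc were the 2 members whose groups did not overlap.

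The calls turned on single vehicle libraries. Without vehicle 2, edgeR called 5 members lower in SSO livers, namely Acta2, Timp1, Lox, Lum and Sparc, with adjusted p of 0.0240, 0.0189, 0.00968, 0.0303 and 0.0147, where 16.2% of all genes were called and 9.23% were called lower. Without vehicle 4 it called Timp1 alone (adjusted p = 0.0452), where 2.24% of all genes were called. Over 15 alternatives the adjusted p ran from 0.00989 to 0.834 for Acta2, from 0.000966 to 0.552 for Timp1, from 0.00968 to 0.862 for Lox, from 0.0303 to 0.954 for Lum and from 0.0147 to 0.498 for Sparc.

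**Figure D3:**
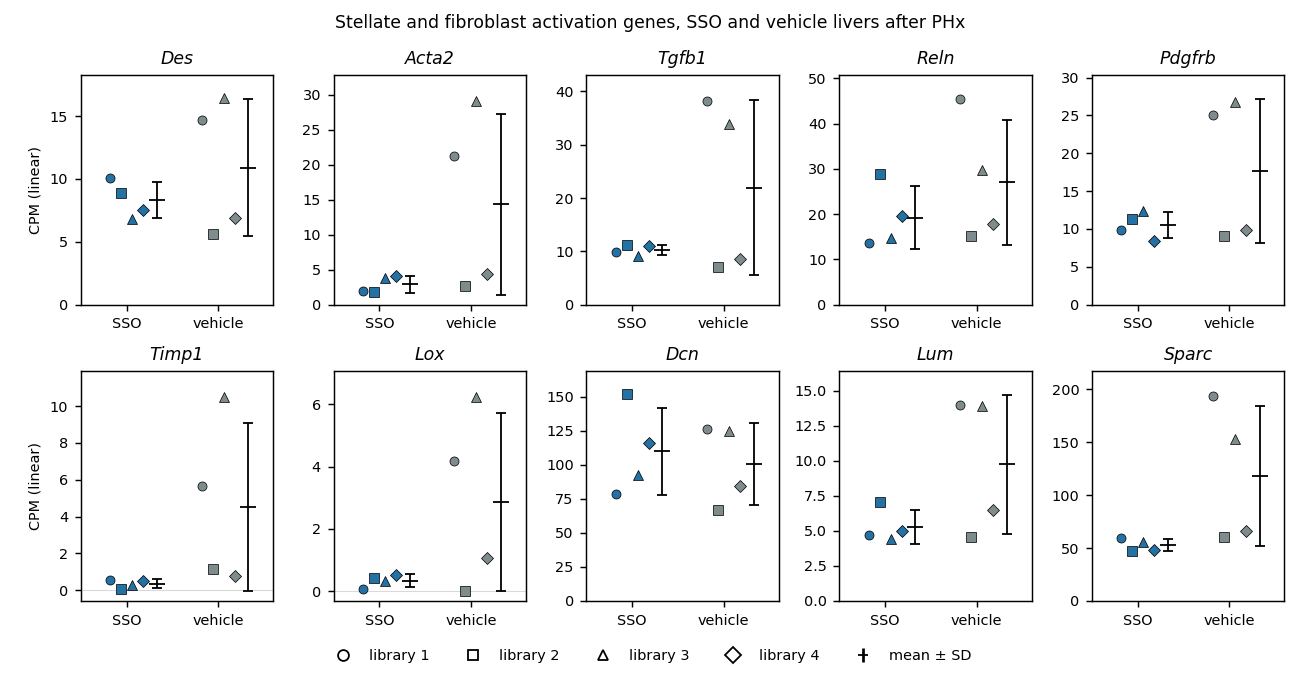
CPM of each of the 10 genes (linear axes) in 4 SSO and 4 vehicle libraries, 1 marker shape per library number, with the mean and SD as bars. Vehicle 1 (circle) and vehicle 3 (triangle) lie above the other 6 libraries for every gene but Dcn, and for Timp1 and Sparc all SSO libraries lie below all vehicle libraries.

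**Figure D4:**
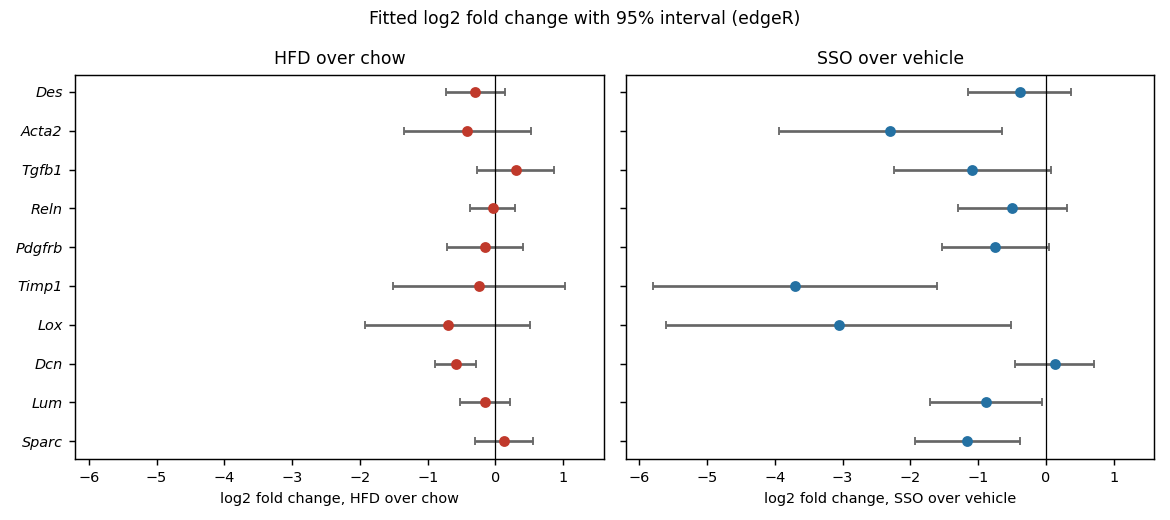
Fitted log2 fold change of each gene with its 95% interval from edgeR, HFD over chow on the left and SSO over vehicle on the right; the line marks 0. On the left the Dcn interval (-0.89 to -0.29) lies wholly below 0; on the right those of Acta2, Timp1, Lox, Lum and Sparc do, and no gene passed the adjusted threshold in either.

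By the same likeness rule, the 5 genes whose log2 CPM followed the mean standardised level of the 10 members most closely over the 8 inhibitor libraries were Ehbp1l1, Sec24b, Rab8b, Abcg1 and Itpkb, each with a Pearson correlation of 0.99 and Spearman correlations of 0.81 to 0.98, out of 13592 candidates. These libraries fall into separate sets, with vehicle 1 and 3 on one side, so the figures describe that split.

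In the pathway lists, 1 gene passed the test in the inhibitor experiment. Nid2, a basement membrane nidogen in the list of 24 proteoglycan and matricellular genes tested, rose to 36.5, 37.5, 34.1 and 31.2 CPM in SSO livers, against 11.8, 19.3, 10.3 and 16.5 CPM in vehicle livers. Here vehicle 2 and 4 were also below every SSO library, and the log2 fold change was 1.27 ± 0.21 (SE), or 0.97 without vehicle 1 and 3 (adjusted p = 0.0369 for all 8 libraries by edgeR's quasi-likelihood test with Benjamini-Hochberg adjustment). The call is lost without any 1 of the SSO libraries, without vehicle 1 and without vehicle 3, where the adjusted p is 0.102 to 0.142, and the range over 15 alternatives is 2.76e-05 to 0.142. With the replicate number as a block the adjusted p was 0.0560. Fbln2, a fibulin of elastic fibres, averaged 2.01 ± 0.368 CPM in SSO livers and 9.91 ± 5.16 CPM in vehicle livers (adjusted p = 0.0602), and Smoc2, a relative of Sparc, 19.8 ± 1.40 and 7.71 ± 3.31 CPM (adjusted p = 0.0865; SD, n = 4 each, edgeR).

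No gene passed among 23 quiescent stellate genes, 19 contractile and myofibroblast genes, 26 of TGF-β signalling, 5 of the platelet-derived growth factor family, 18 matrix proteases and inhibitors, 14 cross-linking and collagen-processing genes, 5 of the reelin pathway and 5 intermediate filament partners. At an unadjusted p under 0.05 by edgeR these lists held 4, 7, 4, 1, 10, 8, 2 and 1 genes, in that order. The share of all genes tested at that threshold was 20.5%, in either direction. Of the list genes counted, 2 quiescent stellate genes, 1 of the protease list and 1 of the reelin pathway were higher in SSO livers, and the rest were lower. The largest values among them came from the protease list: Mmp12, the macrophage metalloelastase, averaged 0.127 ± 0.110 CPM in SSO livers and 19.5 ± 20.3 CPM in vehicle livers (adjusted p = 0.0793), and Plau, the urokinase plasminogen activator, 1.26 ± 0.383 and 22.9 ± 24.0 CPM (adjusted p = 0.111; SD, n = 4 each, edgeR). Among relatives of Lox, Loxl2 averaged 2.77 ± 0.418 CPM in SSO livers and 7.35 ± 4.86 CPM in vehicle livers (adjusted p = 0.151). P4ha2, a collagen prolyl hydroxylase, averaged 4.30 ± 0.513 and 9.66 ± 2.75 CPM in the same order (adjusted p = 0.0897, edgeR).

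Of TGF-β activators, Itgav, the integrin chain that releases latent TGF-β, averaged 14.0 ± 1.10 CPM in SSO livers and 34.5 ± 16.5 CPM in vehicle livers (adjusted p = 0.106). Among myofibroblast genes, Postn, which encodes periostin, averaged 4.79 ± 0.763 CPM in SSO livers and 15.8 ± 10.3 CPM in vehicle livers (adjusted p = 0.111; SD, n = 4 each, edgeR). Median log2 fold changes were -0.08 for the quiescent stellate list, -0.68 for the contractile list, -0.70 for the protease list and -0.73 for the cross-linking list. Without vehicle 1 and 3 the same medians were 0.26, 0.02, -0.24 and 0.01.

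Marker sums of other cells followed the vehicle split to different degrees, and mesothelial, platelet and hepatocyte sums were not highest in vehicle 1 and 3. The sums of 6 monocyte markers were 29.7, 38.6, 31.3 and 37 CPM in SSO 1 to 4, against 426, 37.5, 485 and 79.8 CPM in vehicle 1 to 4. For 11 stellate markers the sums were 271, 356, 290 and 289 CPM in SSO livers and 411, 247, 423 and 259 CPM in vehicle livers. The members Des, Reln and Pdgfrb are among these markers. Vehicle 1 and 3 were thus the highest for both lists, by a wide margin for monocytes and a narrow one for stellate cells, and no marker of either list passed the test.

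The 9 portal fibroblast markers summed to 18.1, 18.8, 18.6 and 17.7 CPM in SSO livers and 37.7, 23.3, 37.1 and 16.8 CPM in vehicle livers. The 6 smooth muscle markers summed to 14.2, 11.9, 13.3 and 9.55 CPM in SSO livers and 20.6, 11.5, 22.6 and 14.1 CPM in vehicle livers, with vehicle 1 and 3 again the highest. Of them, Cnn1 was at 0 in vehicle 1, 2 and 3, and Pln at 0 in SSO 1, SSO 3, vehicle 1 and vehicle 3. Kupffer cell markers summed to 208 to 366 CPM in SSO livers and 492, 117, 391 and 109 CPM in vehicle 1 to 4, and sinusoidal endothelial markers to 189.8 to 337 CPM in SSO livers and 416, 197, 368 and 176 CPM in vehicle 1 to 4. Cholangiocyte markers summed to 33.4 to 43.2 CPM in SSO livers and 134, 44.6, 163 and 41.3 CPM in vehicle 1 to 4. Neutrophil markers summed to 7.56 to 14.2 CPM and 32.5, 3.9, 54.2 and 4.25 CPM in the same order. Mesothelial markers summed to 5.35 to 19.7 CPM in SSO livers and 6.04 to 16.6 CPM in vehicle livers, platelet markers to 10.2 to 12.5 and 6.14 to 10.8 CPM. The part of these cell types, and of the unlike mitochondrial shares, in the members' values was not tested.

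**Figure D5:**
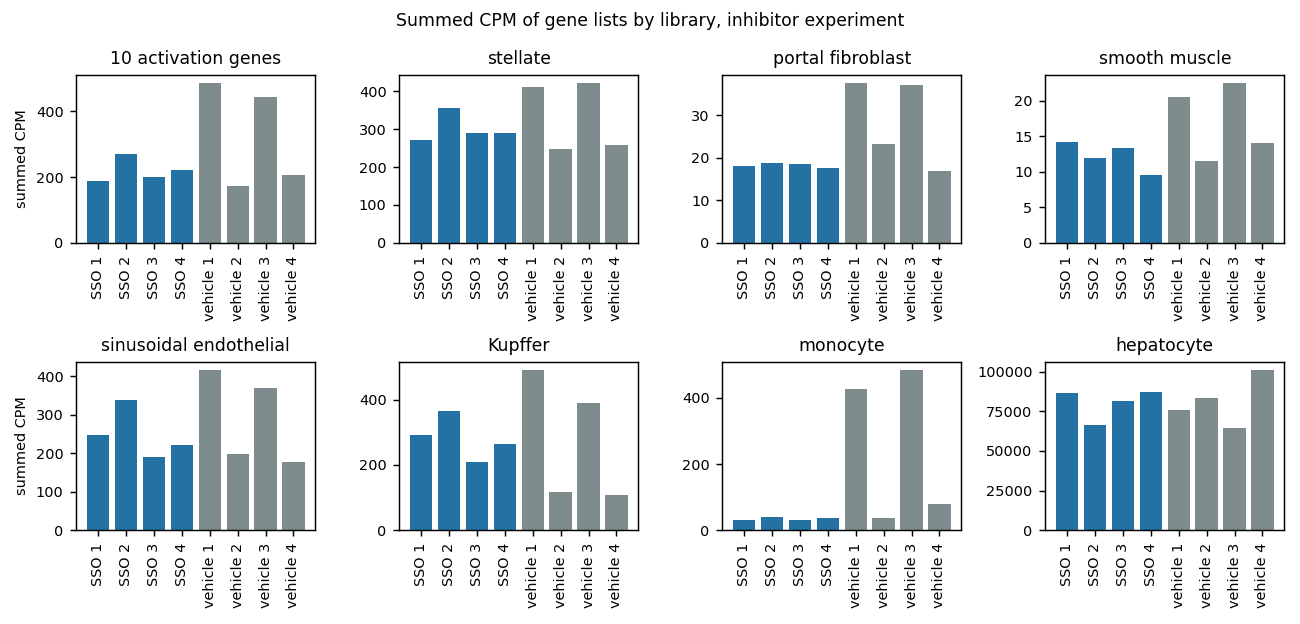
Summed CPM (linear axes from 0) of the 10 activation genes and of 7 marker lists in each SSO and vehicle library, 1 bar per library. In every panel except the hepatocyte one, vehicle 1 and vehicle 3 hold the tallest bars. They reach 488 and 445 CPM for the activation genes and 426 and 485 CPM for the monocyte list. The mesothelial and platelet lists, in which vehicle 1 and vehicle 3 were not the highest, are not drawn. Nor are the neutrophil and cholangiocyte lists, in which they were.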

How the data were processed

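Whole-liver RNA was sequenced in 3 HFD, 3 chow, 4 SSO and 4 vehicle libraries. Both liver tables hold whole-number counts per Ensembl gene, deposited by the authors without normalization. Per the submitters' processing notes, the tools were featureCounts 2.0.2, HISAT2 2.2.1, Trim Galore 0.6.1 and DESeq2 with GRCm38 (mm10); annotation, strand setting and multiple mapping: not given in the sources used here. Genes overlapping another on the opposite strand may share reads: this touches 5.86% of the exon bases of Des, 1.04% of Reln and 0.63% of Lox. The macrophage and single-cell samples were not analysed here.

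Symbols, exon lengths and GRCm38 positions came from GENCODE M21, which matched 55227 identifiers and all 10 members. Each table was fitted apart with edgeR 4.0.16 in R 4.3.3 (TMM scaling, filterByExpr, robust quasi-likelihood test, Benjamini-Hochberg over all genes tested, threshold 0.05), checked on simulated data. CPM use TMM-scaled library sizes. A 0 is given a ceiling of 3 counts. That ceiling covers counting error alone, while the p-values cover counting error and the spread between libraries. Between libraries of 1 group the chi-square per degree of freedom was 15 to 467, far beyond counting error. The 25204205 to 39910561 counts per library therefore do not alone set the precision. Alternatives were DESeq2 1.42.0, limma-voom (limma 3.58.1), library size alone, no filter, no mitochondrial genes, the replicate number as a block and each library left out. Named are all members and, per list, up to 4 genes by smallest p; some results of that rule are not reported here. Members and lists were chosen with earlier results of these data known, and the lists stand for no independent test.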

Additional observations from a re-analysis of the deposited data

How the results depend on the processing

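The number of genes called between HFD and chow livers was 361, and became 926 with DESeq2, 672 with no filter, 206 with the replicate number as a block and 86 to 681 when 1 library was left out. Between SSO and vehicle livers it was 71, and became 1218 with DESeq2, 37 with scaling by library size alone, 205 with no filter, 47 with the replicate block and 0 to 2646 when 1 library was left out (0 without any single SSO library or without vehicle 1, 16 without vehicle 3, 364 without vehicle 4 and 2646 without vehicle 2). Members called numbered 1 with DESeq2 and 1 with no filter for HFD against chow (0 to 0 with 1 library left out), and 4 with DESeq2 and 0 to 5 with 1 library left out for SSO against vehicle. The same replicate numbers did not pair the libraries (correlations of deviations from -0.11 to 0.03), and the block called 0 members in either comparison.

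Scaling by library size alone moved the median log2 fold change of all genes to 0.13 (HFD over chow) and -0.20 (SSO over vehicle), against -0.02 and -0.04, and left 336 higher and 60 lower calls for HFD, against 249 and 112 with TMM, and 33 higher and 4 lower for SSO, against 50 and 21. Under it, Reln (0.11) and Pdgfrb (0.01) turned positive for HFD over chow, and Dcn (-0.08) negative for SSO over vehicle. With 1 library left out, some members near 0 changed sign: for HFD over chow Reln ran from -0.15 to 0.06, Pdgfrb from -0.42 to 0.08 (without HFD 3), Timp1 from -0.94 to 0.25 (0.09 without HFD 3, 0.25 without chow 3) and Sparc from -0.09 (without HFD 1) to 0.30. For SSO over vehicle, Dcn ran from -0.07 (without SSO 2) to 0.26, with -0.02 without vehicle 2, and without vehicle 1 and 3 together Des was 0.41, Tgfb1 0.41, Reln 0.22, Pdgfrb 0.15 and the TGF-β activator Thbs1 0.21. The cause was not tested. In the other 254 of 270 recomputations of a member the direction stayed. Lox and Timp1, at 0 to 387 counts per library, limit what can be read from their folds.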

Other observations

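Lyz2, which encodes the lysozyme of macrophages and neutrophils, was the most abundant monocyte marker in the inhibitor experiment. It had 0.0371, 11.3, 0.428 and 8.01 CPM in SSO livers and 189, 23.0, 189 and 41.6 CPM in vehicle livers. Among the SSO libraries, SSO 1 and SSO 3 were far below SSO 2 and SSO 4, a split that Acta2 (2.01, 1.75, 3.81 and 4.15 CPM in SSO 1 to 4) did not show. In the diet experiment Lyz2 lay between 15.6 and 29.1 CPM over all 6 libraries.

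Itga2b, an integrin chain of platelets and megakaryocytes, averaged 10.1 ± 1.38 CPM in SSO livers and 4.76 ± 0.504 CPM in vehicle livers (SD, n = 4 each, adjusted p = 0.0648 by edgeR). It was picked after its values were seen. Of the 3 platelet markers tested, Itga2b was the 1 with a log2 fold change above 0. The other 2 were below 0, and the median of the 3 was -0.18.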
